A study of Mus musculus with 10 samples.

Results

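The interferon regulatory factors (IRFs) are a family of transcription factors, and 8 of their genes, Irf1 to Irf5 and Irf7 to Irf9, were followed here among the 52636 genes counted. They were chosen by name, by matching Ensembl gene identifiers to symbols of the GRCm38 annotation. Polyadenylated RNA had been sequenced from 10 mouse tumours labelled melanoma. In 6 tumours the genotype was BrafCA;Cdkn2af/f with Arf6Q67L, and in the other 4, the controls, it was BrafCA;Cdkn2af/f alone. BrafCA is an allele that Cre recombinase switches to oncogenic BRAF, Cdkn2af/f is a floxed tumour suppressor locus carried by both groups, and Arf6Q67L is a form of the small GTPase ARF6 locked in its active state. The sources used here do not give the promoter that drives Cre, the cell type that carries the alleles, the age of the mice or any treatment. The comparison asks how the IRF genes stood in Arf6Q67L tumours relative to controls.

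All IRFs bind DNA through a domain with a conserved repeat of tryptophans and recognise GAAA-containing elements. Some start the response: IRF3, IRF5 and IRF7 are phosphorylated after nucleic acid sensors or Toll-like receptors fire. IRF3 and IRF7 then switch on the interferon genes, and IRF7 is itself interferon-inducible. Others are made or engaged in the response: IRF9 joins STAT2 in the complex ISGF3 below the type I interferon receptor, IRF1 is induced by interferon-gamma, and IRF2 binds many of the same sites as IRF1 and can oppose it. IRF4 and IRF8 are best known from lymphocytes, macrophages and dendritic cells, where they often bind together with PU.1, and IRF4 is also made in melanocytes.

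Libraries held between 28635414 and 40869091 counts. Values are in CPM, counts scaled to library size with TMM factors that correct for differences in composition. Where a gene had 0 counts, a level of up to 3 counts (0.0761 to 0.106 CPM) remained possible, from counting error only. Arf6 itself averaged 104 ± 21.3 CPM in Arf6Q67L tumours (SD, n = 6) and 93.0 ± 17.4 CPM in controls (SD, n = 4; edgeR adjusted p = 0.758), and the counts carry no information on the base change. Of the 7 melanocyte markers, Tyr and Dct were at 0 counts in all 10 libraries, so the labelled tumour type was not visible from these defining transcripts. Tyrp1, Mlana, Pmel and Sox10 reached at most 0.0521, 0.101, 0.94 and 2.83 CPM in any tumour. Mitf lay between 11.1 and 26.1 CPM in Arf6Q67L tumours and between 12 and 20.2 CPM in controls. Library numbers of the genotypes form separate blocks, so that genotype cannot be told apart from library order. By Xist and Y-linked transcripts, 3 of 6 Arf6Q67L tumours and 1 of 4 controls were female.

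All 8 members were detected and passed the filter on low counts, and all 8 had a negative log2 fold change, Arf6Q67L over control, against 50.3% of all genes. The largest differences were in Irf7, at 0.239 times the control level, and Irf1, at 0.329 times, followed by Irf8, Irf5 and Irf9. By group mean Irf3 and Irf4 stood near the control level and Irf2 slightly below it, though Irf4 spread widely between tumours. The median member had a log2 fold change of -0.80, against -0.002 over the 17286 genes tested. With edgeR's quasi-likelihood test and Benjamini-Hochberg adjustment over all genes, 0 of 8 members passed an adjusted p of 0.05, as did 0 of 17286 genes (0.0%). At an unadjusted p under 0.05, 6 of 8 members were lower and 0 higher, against 7.05% of all genes lower and 4.65% higher. Members at an unadjusted p under 0.05 numbered 3 without control 4, and 4 to 6 with any other tumour left out. DESeq2 called 1 of 8 members, Irf7, lower and 0 higher, against 1.25% and 0.768% of the genes it tested. These are values of whole tumours, in which fewer cells of a type and less RNA per cell cannot be told apart.

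**Figure D1:**
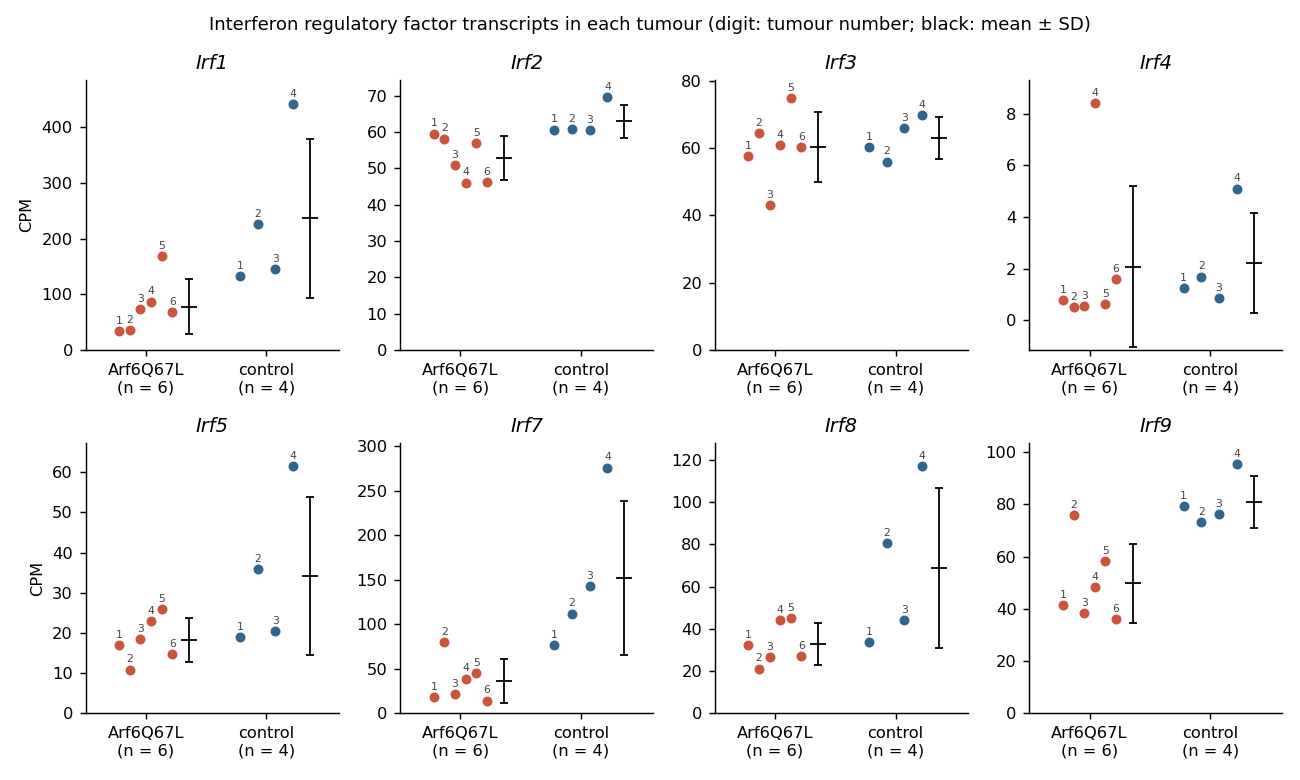
CPM of each IRF gene (vertical axes, linear, each gene on its own scale) in 6 Arf6Q67L tumours and 4 controls, with the mean and SD in black and the tumour number above each point. Control 4 is the highest of all tumours for Irf1, Irf2, Irf5, Irf7, Irf8 and Irf9, and every Arf6Q67L tumour lies below every control for Irf2 alone.

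Irf7, the interferon-inducible partner of IRF3 in switching on type I interferon genes (chromosome 7, 141262706 to 141266481, GRCm38), showed the widest gap. It stood at 14.3, 30.1 and 80.1 CPM (lowest, median and highest) in Arf6Q67L tumours, and at 77.1, 112, 143 and 276 CPM in controls 1 to 4. The groups met at a single point: Arf6Q67L tumour 2, at 80.1 CPM, lay just above control 1, and the other 5 Arf6Q67L tumours lay below every control. Arf6Q67L over control, this was a log2 fold change of -2.06 (SE 0.51; adjusted p = 0.242 by edgeR and 0.0105 by DESeq2). Leaving out each tumour in turn kept it between -2.45, without Arf6Q67L tumour 2, and -1.60, without control 4. Among all genes tested, 0.862% had a log2 fold change as low or lower.

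Irf3, the close relative of Irf7 that most cells hold in latent form (chromosome 7, 44997648 to 45002848), did not follow it. It stood at 43.1, 60.7 and 74.9 CPM (lowest, median and highest) in Arf6Q67L tumours, and at 60.2, 56.0, 65.9 and 69.9 CPM in controls 1 to 4. The groups overlapped along nearly the whole range, and the highest value of all was in Arf6Q67L tumour 5. The log2 fold change of -0.06 (SE 0.14, edgeR adjusted p = 0.887) was smaller than the spread between tumours and turned to 0.03 without Arf6Q67L tumour 3.

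The ratio of Irf7 to Irf3 within a tumour, which does not depend on library size, separated the groups. Irf7 ran at 0.237 to 1.24 times the CPM of Irf3 in Arf6Q67L tumours, and at 1.28 to 3.95 times in controls. All 6 Arf6Q67L tumours therefore lay below all 4 controls, though Arf6Q67L tumour 2 and control 1 nearly touched. On the log2 scale the ratio averaged -0.97 ± 0.83 in Arf6Q67L tumours (SD, n = 6) and 1.11 ± 0.67 in controls (SD, n = 4), a difference of -2.08. A two-sided exact permutation test over the 210 splits of the tumours gave p = 0.00476, the smallest the design allows, and 0.0143 adjusted over the 3 pairs of relatives compared. This adjustment covers the pairs and not all genes. Irf3 hardly differed, so the ratio largely restates the log2 fold change of Irf7 (-2.06, edgeR adjusted p = 0.242 over all genes). For 0.729% of the other genes the ratio to Irf3 lay below every control in every Arf6Q67L tumour. Without control 4 the difference was -1.79 and the exact permutation p adjusted over the pairs was 0.0714.

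**Figure D2:**
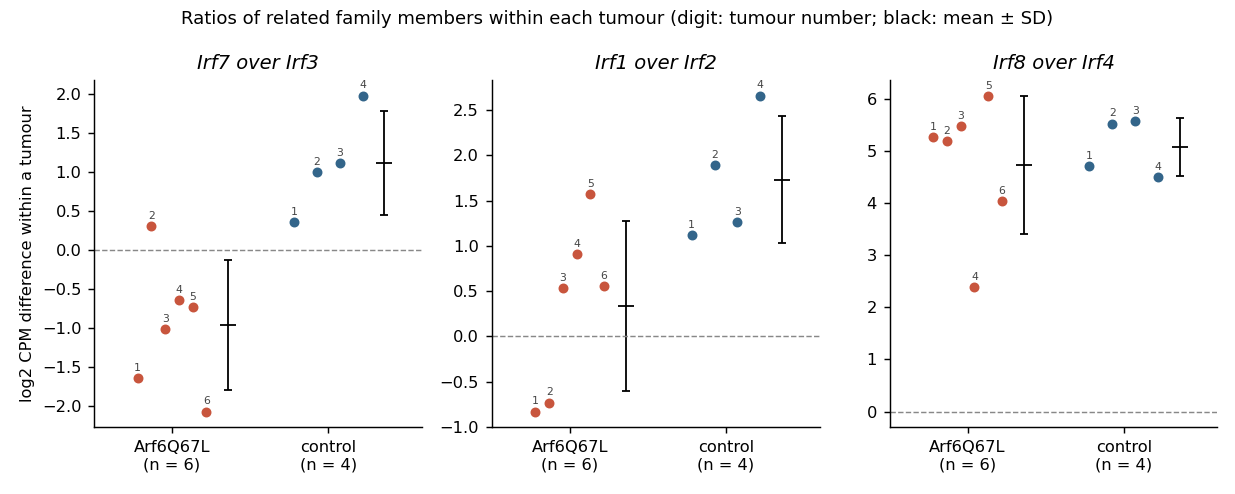
Difference of log2 CPM between related genes within each tumour (vertical axes) in Arf6Q67L tumours and controls, with tumour numbers, and the mean and SD in black. Irf7 over Irf3 lies below all controls in all 6 Arf6Q67L tumours, Irf1 over Irf2 in 5 of 6, and Irf8 over Irf4 overlaps.

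Irf1, the interferon-gamma-induced activator of class I antigen presentation genes (chromosome 11, 53770014 to 53778374), had the next widest gap. It stood at 33.6, 70.9 and 169 CPM (lowest, median and highest) in Arf6Q67L tumours, and at 132, 226, 145 and 441 CPM in controls 1 to 4. In 5 of 6 Arf6Q67L tumours it lay below every control, and the exception, tumour 5 at 169 CPM, lay above controls 1 and 3. On the log2 scale the fold change was -1.60 (SE 0.49; adjusted p = 0.299 by edgeR and 0.0621 by DESeq2), and it ran from -1.99 without Arf6Q67L tumour 5 to -1.10 without control 4.

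Irf2, the relative that shares and can block IRF1 sites (chromosome 8, 46739732 to 46847458), moved over a far narrower range. It stood at 46.1, 53.9 and 59.6 CPM (lowest, median and highest) in Arf6Q67L tumours, and at 60.7, 60.8, 60.6 and 69.7 CPM in controls 1 to 4. It was the 1 member of 8 whose groups did not overlap, which held for 1.28% of all genes in this direction, but the highest Arf6Q67L tumour and the lowest control were only 59.6 and 60.6 CPM. This gave a log2 fold change of -0.25 (SE 0.10; adjusted p = 0.389 by edgeR and 0.337 by DESeq2).

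The log2 ratio of Irf1 to Irf2 averaged 0.34 ± 0.94 in Arf6Q67L tumours (SD, n = 6) and 1.73 ± 0.70 in controls (SD, n = 4). The difference of -1.4 had a two-sided exact permutation p of 0.0429, and 0.0643 adjusted over the 3 pairs, so it did not pass. In Arf6Q67L tumours 1 and 2 Irf1 was at 0.563 and 0.604 times Irf2, while in every other tumour it was above Irf2, up to 6.33 times in control 4. Without Arf6Q67L tumour 5 the difference was -1.64, with an exact permutation p of 0.0238 adjusted over the pairs. With any of the other 9 tumours left out the adjusted exact permutation p was 0.0714 to 0.161, the last being without control 4 (-1.09). The share of other genes with a ratio to Irf2 below every control in every Arf6Q67L tumour was 0.388%.

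Irf9, the DNA-binding part of ISGF3 (chromosome 14, 55603571 to 55610030), showed a smaller and more even difference. It stood at 36.0, 44.8 and 76.0 CPM (lowest, median and highest) in Arf6Q67L tumours, and at 79.3, 73.3, 76.2 and 95.5 CPM in controls 1 to 4. As with Irf7, Arf6Q67L tumour 2 was the 1 tumour of its group that reached the controls. Its log2 fold change was -0.70 (SE 0.20; adjusted p = 0.283 by edgeR and 0.0889 by DESeq2). Its ISGF3 partner Stat2 stood lower too and averaged 70.9 ± 20.3 CPM in Arf6Q67L tumours (SD, n = 6) and 170 ± 32.4 CPM in controls (SD, n = 4). Stat2 had a log2 fold change of -1.26 (SE 0.21, edgeR adjusted p = 0.199). The groups did not overlap for Stat2.

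Irf8, a determinant of macrophages and dendritic cells (chromosome 8, 120736358 to 120756694), stood at 21.2, 29.7 and 45.2 CPM (lowest, median and highest) in Arf6Q67L tumours, and at 33.8, 80.7, 44.2 and 117 CPM in controls 1 to 4. Controls 2 and 4 were high, while controls 1 and 3 lay within the range of the Arf6Q67L tumours. Between the groups the log2 fold change was -1.07 (SE 0.35; adjusted p = 0.322 by edgeR and 0.110 by DESeq2), and -0.68 without control 4.

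Irf5, which carries Toll-like receptor signals through MyD88 in myeloid cells (chromosome 6, 29526625 to 29541871), had the same shape. It stood at 10.9, 17.7 and 26.0 CPM (lowest, median and highest) in Arf6Q67L tumours, and at 19, 35.8, 20.5 and 61.5 CPM in controls 1 to 4. Controls 2 and 4 again stood above all other tumours. Set against controls, the log2 fold change was -0.90 (SE 0.35; adjusted p = 0.375 by edgeR and 0.227 by DESeq2), and it was -0.44 without control 4. Exons of Tnpo3 on the opposite strand cover 14.1% of the exon bases of Irf5, and the sources used here give no strand setting for the counting, so part of its counts could belong to that gene. For the other members such overlap was at most 3.4% of exon bases.

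Irf4, a factor of plasma cells, T cells, some dendritic cells and melanocytes (chromosome 13, 30749226 to 30766976), was by far the least abundant member. It stood at 0.524, 0.705 and 8.4 CPM (lowest, median and highest) in Arf6Q67L tumours, and at 1.24, 1.70, 0.881 and 5.1 CPM in controls 1 to 4. In 4 of 6 Arf6Q67L tumours it lay below every control, while Arf6Q67L tumour 4 and control 4 stood far above all others. The highest value, in Arf6Q67L tumour 4, rested on 268 counts, and the lowest, in Arf6Q67L tumour 2, on 19. The log2 fold change of -0.10 (SE 0.91, edgeR adjusted p = 0.979) had no stable direction: it was -1.45 without Arf6Q67L tumour 4 and 0.71 without control 4, and DESeq2 gave no p-value. Arf6Q67L tumour 4 also held the highest levels of the plasma cell transcripts Igkc, Jchain and Mzb1, at 1060, 103 and 12.6 CPM, against at most 64.0, 10.3 and 1.85 CPM in any other tumour. Sdc1, of the same list, was at 209 CPM there and at 383 CPM in Arf6Q67L tumour 3. Control 4, the next highest for Irf4, held 25.5, 5.33 and 0.57 CPM of these 3 transcripts, below control 1 (64.0, 7.68 and 1.85 CPM). It held the most Ighm of all tumours, at 90.8 CPM. The summed B and plasma cell markers ran from 136 to 1420 CPM in Arf6Q67L tumours and from 260 to 447 CPM in controls. Their part in the Irf4 values was not tested.

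The log2 ratio of Irf8 to Irf4 averaged 4.73 ± 1.32 in Arf6Q67L tumours (SD, n = 6) and 5.07 ± 0.55 in controls (SD, n = 4), a difference of -0.34 with a two-sided exact permutation p of 0.705, also after adjustment over the 3 pairs. It was 0.13 without Arf6Q67L tumour 4, where Irf8 was 5.25 times Irf4, against 17.0 to 72.3 times in the other Arf6Q67L tumours. For 0.0231% of the other genes the ratio to Irf4 lay below every control in every Arf6Q67L tumour.

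**Figure D3:**
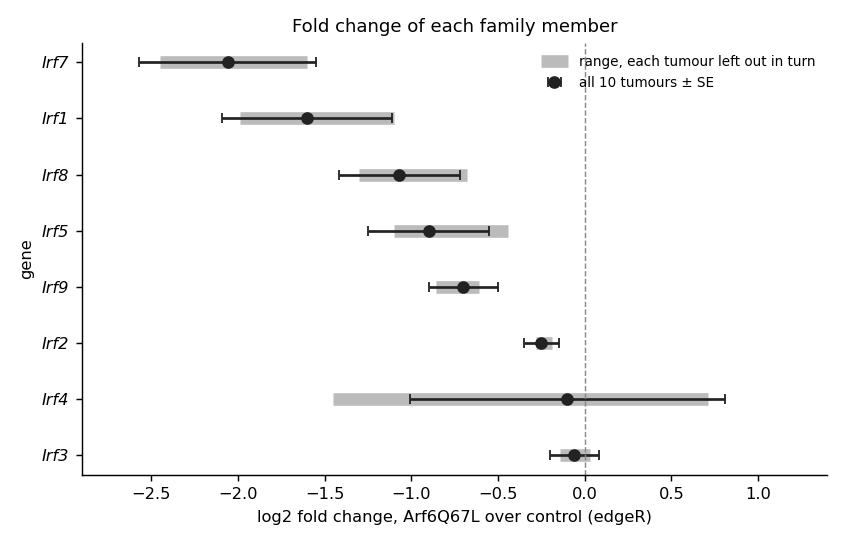
Log2 fold change of each member, Arf6Q67L over control (horizontal axis, edgeR), with its SE as whiskers and, as grey bars, the range when each tumour was left out in turn. The grey bars of Irf7, Irf1, Irf8, Irf5, Irf9 and Irf2 stay below 0, and those of Irf3 and Irf4 cross it.

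Markers of the cells in which IRF4, IRF5 and IRF8 are best known were lower at their median in Arf6Q67L tumours, with 0 past the edgeR threshold. The 5 pan-leukocyte markers (Ptprc, Cd53, Laptm5, Coro1a and Cd52) summed to 360 to 744 CPM in Arf6Q67L tumours and to 490 to 1440 CPM in controls, with all 5 log2 fold changes negative at a median of -0.94. The 10 macrophage markers summed to 889 to 1880 CPM and to 1390 to 3590 CPM in the same groups, with 8 of 10 negative. The 2 positive ones were Mertk (0.73, SE 0.21, edgeR adjusted p = 0.283) and Mrc1 (0.60, SE 0.46, edgeR adjusted p = 0.650). Mertk had the lowest p of the list and was above all controls in every Arf6Q67L tumour. The 10 dendritic cell markers summed to 49.6 to 75.7 CPM in Arf6Q67L tumours and to 57.4 to 184 CPM in controls, with 8 of 10 negative. The 7 plasmacytoid dendritic cell markers summed to 402 to 528 CPM and to 407 to 581 CPM, with 5 of 7 negative. Tcf4 alone made up most of that sum, at 346 to 502 CPM in Arf6Q67L tumours and 285 to 458 CPM in controls. The 10 T cell markers summed to 29.6 to 135 CPM in Arf6Q67L tumours and to 63.2 to 450 CPM in controls. All 10 of them were negative, at a median log2 fold change of -2.06. In each of these lists 0 markers were at 0 in all libraries. The part of these cells in the Irf values was not tested.

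Levels of different genes were compared per kilobase of exon. In Arf6Q67L tumours Irf1 (19.5 ± 12.4 CPM per kilobase, SD, n = 6) and Irf3 (17.5 ± 3.0) led and could not be ordered, since Irf1 was the higher in 3 of 6 tumours. Irf7 (9.63 ± 6.52) and Irf9 (9.23 ± 2.81) followed, also in either order in 3 of 6 tumours each, then Irf2 (7.17 ± 0.82), Irf5 (6.31 ± 1.87), Irf8 (4.64 ± 1.4) and Irf4 (0.424 ± 0.637). By this length Irf5 was above Irf8 in all 6 tumours. In controls the order began with Irf1 (59.4 ± 36.0 CPM per kilobase, SD, n = 4) and Irf7 (40.2 ± 23.0), which stood in that order in 3 of 4 tumours, both ahead of Irf3 (18.3 ± 1.79) and Irf9 (15.1 ± 1.85). Irf5 (11.8 ± 6.79), Irf8 (9.76 ± 5.35) and Irf2 (8.51 ± 0.612) came next, and Irf4 (0.455 ± 0.396) last. With the longest coding transcript as the length in place of all annotated exons, Irf2 ranked the third in Arf6Q67L tumours and the fifth in controls, and Irf7 the fifth in Arf6Q67L tumours. By that length Irf8 was above Irf5 in all 6 Arf6Q67L tumours and all 4 controls, so their order depends on the length used.

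**Figure D4:**
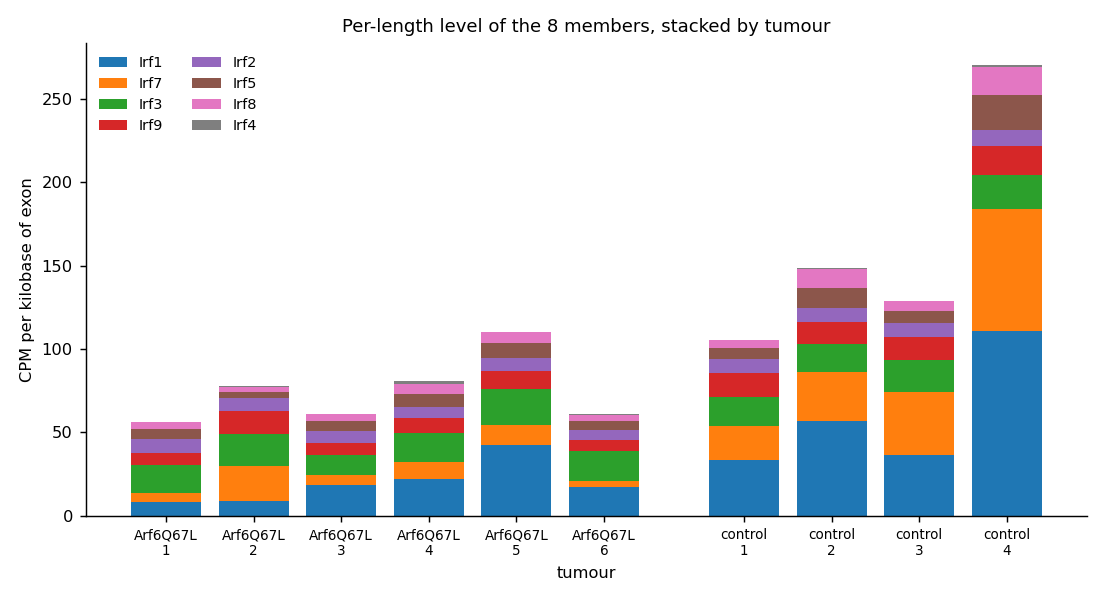
CPM per kilobase of exon of the 8 members, stacked for each tumour (horizontal axis: 6 Arf6Q67L tumours, then 4 controls). The stacks sum to 56.4 to 110 in Arf6Q67L tumours and to 106 to 270 in controls, and the segments of Irf1 and Irf7 vary most in height.

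Summed over the family the per-kilobase level averaged 74.5 ± 20.1 in Arf6Q67L tumours (SD, n = 6) and 163 ± 73.4 in controls (SD, n = 4). Its make-up differed as well. Irf3 held 19.8% to 29.7% of the sum in Arf6Q67L tumours and 7.52% to 16.5% in controls, with no overlap, although its own CPM hardly differed. Irf7 held 6.25% to 27.3% in Arf6Q67L tumours and 19.3% to 29.2% in controls, where Arf6Q67L tumour 2, at 27.3%, was the only tumour of its group inside the control range. Irf1 held 11.4% to 38.5% in Arf6Q67L tumours and 28.2% to 41.1% in controls. Such shares depend on one another and were not tested.

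The region just before the start of each gene was searched for 2 elements through which interferon acts, in RefSeq windows of GRCm38.p6 from 250 bases before to 50 after the annotated start. All 8 members matched, with 11 windows. The interferon-stimulated response element (ISRE) was searched as GAAA, any 2 bases and GAAA again, and the gamma-activated site (GAS), an element of interferon-gamma responses, as TTC, any 3 bases and GAA, on both strands. An ISRE was found in 3.44% of all 32851 windows and a GAS in 8.3%. Among the members, Irf2 held 1 ISRE, and Irf1, Irf2 and Irf8 held a GAS, Irf8 having 2 of them. All matches in the windows of the members are printed, whatever the fold change of the gene. Up to 20 bases are given on either side, and capitals mark the element.
Irf1 GAS, chr11:53769904-53769952, plus strand: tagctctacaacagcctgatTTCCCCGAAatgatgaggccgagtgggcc
Irf8 first GAS, chr8:120736167-120736215, plus strand: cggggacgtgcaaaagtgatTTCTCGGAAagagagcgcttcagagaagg
Irf8 second GAS, chr8:120736185-120736233, plus strand: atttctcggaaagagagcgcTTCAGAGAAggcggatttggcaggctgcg
Irf2 ISRE, chr8:46739495-46739533, plus strand: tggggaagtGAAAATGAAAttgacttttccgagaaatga
Irf2 GAS, chr8:46739501-46739549, plus strand: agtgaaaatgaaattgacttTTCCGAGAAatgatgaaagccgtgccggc
The Irf1 element begins 90 bases before the start, the Irf8 elements 171 and 153 bases before it, and the Irf2 ISRE and GAS 241 and 224 bases before it, so both pairs sit within a short stretch. No match to these letters lay in the windows of Irf3, Irf4, Irf5, Irf7 and Irf9. A match describes the letters in the window, and binding there was not tested.

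The genes that act with the IRFs were taken from lists by role. Of the receptors, adaptors and kinases that activate IRF3, IRF5 and IRF7, 19 of 24 were negative at a median log2 fold change of -0.32. At an unadjusted edgeR p under 0.05, 8 of 24 were lower and 0 higher, against 7.05% and 4.65% of all genes. The edgeR threshold over all genes was passed by 0 of them. The RNA sensor Ifih1 averaged 26.7 ± 8.62 CPM in Arf6Q67L tumours (SD, n = 6) and 63.7 ± 13.9 CPM in controls (SD, n = 4), which is -1.25 in log2 fold change (SE 0.24, edgeR adjusted p = 0.233). Dhx58, a regulator of RNA sensing (-1.0, SE 0.25, edgeR adjusted p = 0.248), and the nucleic acid sensor Zbp1 (-2.51, SE 0.59, edgeR adjusted p = 0.233) were also below all controls in every Arf6Q67L tumour. The receptor Tlr3 (-0.75, SE 0.20, edgeR adjusted p = 0.273) was below all controls in every Arf6Q67L tumour too. The kinase Tbk1, which phosphorylates IRF3, had a log2 fold change of -0.13 and the adaptors Mavs and Traf6 of -0.04 and 0.01. For the kinase Ikbke it was -0.73 (SE 0.28, edgeR adjusted p = 0.377), with 5 of 6 Arf6Q67L tumours below every control.

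Interferon transcripts were scarce. Of 14 interferon genes, 5 had 0 counts in all libraries and 2 passed the filter. Ifng, which encodes interferon-gamma, averaged 0.588 ± 0.713 CPM in Arf6Q67L tumours (SD, n = 6) and 3.98 ± 4.23 CPM in controls (SD, n = 4), which is -2.75 in log2 fold change (SE 1.09, edgeR adjusted p = 0.386), with 4.81 and 9.63 CPM in controls 2 and 4. The other tested one, Ifne, known from epithelia, averaged 0.463 ± 0.576 CPM and 0.315 ± 0.101 CPM in the same groups (0.55, SE 0.72, edgeR adjusted p = 0.808). Ifnb1, a target of IRF3 and IRF7, reached at most 0.0319 CPM in Arf6Q67L tumours and 0.203 CPM in controls, in most libraries under the limit that a count of 0 allows. Of the interferon receptor chains and the kinases and STAT protein below them, 8 of 9 tested were negative at a median of -0.25. At an unadjusted edgeR p under 0.05, 1 of 9 (Stat2) was lower, against 7.05% of all genes, and 0 passed the edgeR threshold. After Stat2 the lowest p-values were those of the receptor chain Ifnar2 (-0.32, SE 0.16, edgeR adjusted p = 0.465) and the kinase Jak2 (-0.42, SE 0.22, edgeR adjusted p = 0.477).

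The lists downstream had larger medians. All 20 targets of ISGF3 were negative at a median log2 fold change of -1.71, all 20 at an unadjusted p under 0.05, and 15 of 20 lay below every control in every Arf6Q67L tumour, while 0 passed the edgeR threshold and 17 passed in DESeq2. Of all genes, 7.05% were lower at an unadjusted edgeR p under 0.05 and 1.28% lay below every control in every Arf6Q67L tumour. DESeq2 called 1.25% of the genes it tested lower. Mx1, an antiviral GTPase, averaged 13.5 ± 4.56 CPM in Arf6Q67L tumours (SD, n = 6) and 57.4 ± 15.7 CPM in controls (SD, n = 4), with Ifit2 and Ifit3b next by p. Of the 22 targets of IRF1 all were negative at a median of -1.67, 16 at an unadjusted p under 0.05, 0 past the edgeR threshold and 7 in DESeq2. The peptide transporter genes Tap1 (-1.96, SE 0.52) and Tap2 (-1.31, SE 0.35) and the class I light chain B2m (-1.61, SE 0.32) had the lowest p-values, with edgeR adjusted p-values of 0.273, 0.273 and 0.233. These target lists hold genes already seen to differ in these tumours, so their direction is no independent evidence.

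Partners and brakes of the IRFs held both signs. Of 15 tested, 13 were negative at a median of -0.88, and 0 passed the edgeR threshold. At an unadjusted edgeR p under 0.05, 8 were lower and 1 higher, against 7.05% and 4.65% of all genes. Irf2bpl, a relative of the IRF2 binding proteins, was the higher one, at 89.6 ± 13.6 CPM in Arf6Q67L tumours (SD, n = 6) and 64.7 ± 7.06 CPM in controls (SD, n = 4), above all controls in every Arf6Q67L tumour (log2 fold change 0.47, SE 0.13, edgeR adjusted p = 0.273). Usp18, which restrains interferon receptor signalling (-1.67, SE 0.44, edgeR adjusted p = 0.260), and Trim21, a ubiquitin ligase that acts on IRFs (-0.99, SE 0.29, edgeR adjusted p = 0.285), were lower. Of the genes tied to IRF8 and IRF4, 14 of 15 were negative at a median of -0.83, 7 were lower at an unadjusted p under 0.05 and 0 passed the edgeR threshold. Among them Xcr1, a receptor of cross-presenting dendritic cells (-3.05, SE 1.04), stood at 8.33 and 25.7 CPM in controls 2 and 4 and at most 2.12 CPM in any other tumour. Cst3, a protease inhibitor (-0.83, SE 0.27), and Cybb, a subunit of the phagocyte oxidase (-1.15, SE 0.38), were the others of lowest p. The edgeR adjusted p-values of Xcr1, Cst3 and Cybb were 0.344, 0.327 and 0.332.

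**Figure D5:**
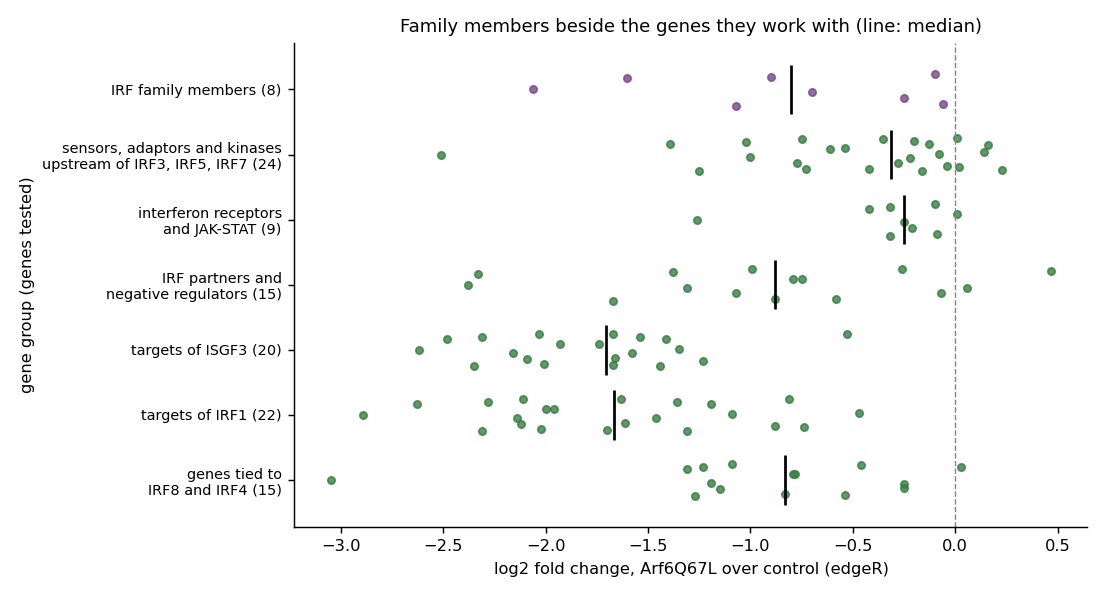
Log2 fold change, Arf6Q67L over control (horizontal axis, edgeR), of the 8 members and of the tested genes of 6 lists (rows, with the number of genes), with the median as a black line. Medians of the ISGF3 and IRF1 target lists lie at -1.71 and -1.67, that of the members at -0.80, and those of the sensor and receptor lists at -0.32 and -0.25.

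To find which genes followed each member most closely, profiles of 12154 protein-coding genes over the 10 tumours were centred on their means and compared by the root mean square difference of log2 CPM. This is a description that includes the difference between groups. Irf7, whose own deviation was 1.3, lay nearest to Pla2g4c, Oasl2 and Herc6 (0.32, 0.35 and 0.35), and Irf1, at 1.1, nearest to the immunoproteasome subunit Psmb10 (0.24), Rab19 and Gbp9. Irf5, at 0.66, lay nearest to Unc93b1, a chaperone of endosomal Toll-like receptors (0.14), Fgd2 and Plcb2. Irf8, at 0.71, lay nearest to Dennd1c, Plbd1 and the cytokine receptor chain Csf2ra (0.14 to 0.16). Irf9, at 0.48, lay nearest to Mitd1, the RNA sensor Ddx58 and Prdx5 (0.18 to 0.20). Irf3 and Irf2 varied little themselves, by 0.20 and 0.18, and had Mlycd, Cables2 and Ppif, and Nfkb2, G6pdx and Rab5c, as nearest genes. Irf4, at 1.2, lay nearest to Srpx, Tent5c and Svep1 (0.56 to 0.62), which were farther from it than the nearest genes of the other members were from theirs. Set against its own deviation, its nearest gene was about as near as that of Irf2 (0.079). Only protein-coding genes with a mean log2 CPM of at least 1 were compared, so scarcer genes and genes of other types could not appear.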

How the data were processed

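The authors deposited raw counts, genes by tumours, in a single table of 10 columns. RNA was extracted with a Qiagen kit and libraries were made with an Illumina stranded, polyA-selecting kit, per the labels' protocols. STAR 2.5.2b, featureCounts 1.5.1, DESeq2 1.18.0 and GRCm38 stand in the submitters' processing notes without their roles; the sources used here give neither the strand setting nor the treatment of reads with several matches. Symbols were found for 52403 identifiers (99.6%) in GENCODE M21. Tumour numbers follow accession order in each group and pair nothing, and the labels do not say that each came from a separate animal. The edgeR and DESeq2 p-values set the group difference against the spread between these tumours, which need not be that between animals. The exact permutation p-values rank the observed split among all splits of the same tumours. No tumour was treated as a repeat of another, since counts within groups differed beyond sampling noise (lowest chi-square 75.6 per gene).

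Genes were tested with edgeR 4.0.16 in R 4.3.3: filterByExpr (minimum count 10, 17286 genes kept), TMM, robust glmQLFit and glmQLFTest on genotype over all 10 tumours, and Benjamini-Hochberg adjustment over all genes kept at a threshold of 0.05. SE is the fold change over the root of F; log2 CPM used a prior count of 2. Ratios within tumours were compared by two-sided exact permutation over 210 splits. Exons and coordinates are those of GENCODE M21, promoter windows those of RefSeq (GRCm38.p6). Simulated counts were used to test the edgeR step. Alternatives were DESeq2 1.42.0, RLE scaling, no low-count filter, sex as a term, a prior count of 0.5, each tumour left out in turn and, added after seeing the data, male tumours alone. Named by rule were all members, the 3 genes of lowest p in each pathway list, the 3 nearest profiles of each member (mean log2 CPM of at least 1) and Arf6. From the pathway lists, Tlr3, Ikbke, Tbk1, Mavs, Traf6 and Ifnb1 were named outside this rule, after their values were seen. The same holds for the markers Mertk, Mrc1, Tcf4, Igkc, Jchain, Mzb1, Sdc1, Ighm and those of the melanocyte lineage. The pan-leukocyte markers were named as a whole list. The members and lists were chosen with earlier results of these data known. The results for 2 further genes, 1 of them in the receptor list, are not reported here. Marker lists also covered NK cells, neutrophils, mast cells, endothelial cells and keratinocytes.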

Additional observations from a re-analysis of the deposited data

Results flagged for a closer look

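Among 22 sets of values screened, each a member or a ratio within 1 group, 2 held a tumour far from the rest of its group, and chance gives about 1 in 20. Irf4 stood at 8.4 CPM in Arf6Q67L tumour 4, and the gap to the next tumour of the group was 0.863 of the whole range. Irf2 stood at 69.7 CPM in control 4, and the gap to the next control was 0.979 of the range, the other 3 controls lying between 60.6 and 60.8 CPM.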

How the results depend on the processing

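Irf1, Irf2, Irf5, Irf7, Irf8 and Irf9 kept a negative log2 fold change under all 15 alternatives, and none passed the threshold in any edgeR alternative. DESeq2 called 402 genes, against 0 in edgeR, and 1 member, Irf7 (-2.05, adjusted p = 0.0105). Genes past the edgeR threshold numbered 0 to 1 with each tumour left out, and 2 in male tumours alone; 0 were called with no filter, RLE scaling or sex as a term. The direction turned for Irf3, which ran from -0.14 to 0.03 with each tumour left out and was 0.06 in male tumours alone, and for Irf4, which ran from -1.45 to 0.71 with each tumour left out and was -1.48 in male tumours alone and -0.75 with sex as a term. Members at an unadjusted p under 0.05, 6 in all tumours, numbered 3 without control 4, 4 with sex as a term and 2 in male tumours alone. The Irf7 over Irf3 difference ran from -2.33 to -1.79 with each tumour left out, where it did not pass without control 4, and was -2.20 in male tumours alone, where 3 against 3 tumours cannot pass. The Irf1 over Irf2 difference ran from -1.64 to -1.09, and that of Irf8 over Irf4 from -0.60 to 0.13. The cause was not tested. No paired analysis was possible because the labels give the tumours no shared replicate numbers. Irf4 is limited by depth, with as few as 17 counts in a library.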

Other observations

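Marker lists not set beside a result above differed as follows. All 8 mast cell markers were positive at a median log2 fold change of 3.08, 7 of 8 at an unadjusted p under 0.05, 0 past the edgeR threshold and 5 in DESeq2, and summed to 60.5 to 1050 CPM in Arf6Q67L tumours and to 18.9 to 98.3 CPM in controls. Of all genes, 4.65% were higher at an unadjusted edgeR p under 0.05. DESeq2 called 0.768% of the genes it tested higher and 1.25% lower. The 6 endothelial markers summed to 89.9 to 254 CPM in Arf6Q67L tumours and to 134 to 351 CPM in controls, with 6 of 6 negative, 0 past the edgeR threshold and 2 in DESeq2. The 8 NK cell markers summed to 12.8 to 174 CPM and to 59.4 to 286 CPM in the same groups, and the 6 neutrophil markers to 9.52 to 90.6 CPM and to 40.7 to 238 CPM. The 4 keratinocyte markers summed to 3.78 to 6.23 CPM in Arf6Q67L tumours and to 4.23 to 5.6 CPM in controls. The part of any of these in the Irf values was not tested.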
